A study of Mus musculus with 70 samples.

Results

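The mouse mitochondrial genome carries 37 annotated genes, of which 13 encode proteins, 2 encode ribosomal RNAs and 22 encode transfer RNAs. Members were the rows of the deposited count tables whose Entrez identifier maps to a gene on the mitochondrial chromosome. Of the 27179 genes in the tables, 15 were members, namely the 13 protein genes and both rRNA genes, and no tRNA gene had a row. The filter on low counts, which a gene could pass through 1 library of any group, was passed by 14 of the 15, and mt-Atp8 did not pass.

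Mitochondrial DNA is transcribed from both strands into long polycistronic RNAs, which are cut apart at the tRNAs that lie between most of the other genes. The messenger RNAs then receive poly(A) tails, which for some genes also complete the stop codon. The encoded proteins are core subunits of the respiratory complexes and of ATP synthase, and the rRNAs build the mitochondrial ribosome that translates them. Because CEL-seq copies RNA from an oligo(dT) primer at a run of adenines and sequences each molecule close to its 3′ end, a count for an rRNA gene also depends on how that RNA is primed.

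The series profiled sorted progenitors of innate lymphoid cells from mouse bone marrow, with 100 cells in each sample, in 2 batches that the labels name. Wild-type (WT) mice gave CLP (8 libraries), CLP expressing the integrin α4β7 (5), CILP, the common innate lymphoid progenitor (7), a population labelled ILCP (3), in whose place the design text names a Sca1+ CILP and for which no sort gate is given, and ILC2P, the progenitor of group 2 innate lymphoid cells (8). TCF7-/- mice, which lack the transcription factor TCF-1, gave CLP (5), CILP (4) and ILC2P (2). Id2-/- mice, which lack an inhibitor of E proteins, gave CLP (2), CILP (2) and ILCP (1). These 47 libraries in 11 groups entered the model, with 4 technical repeats added to their parents. The library that the submitters set aside as an outlier, 6 libraries labelled Nfil that they did not use, and 12 control wells without cells stayed out of it. All Id2-/- libraries were in batch 1 and both TCF7-/- ILC2P libraries in batch 2. The labels do not say whether the replicates came from separate animals, so the p-values measure the spread between these samples, which may be technical.

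Because the assay starts at the 3′ end, the last 60 bases of the members that the results below turn on are given first, from the GENCODE transcripts on GRCm38, 5′ to 3′ along each transcript. Capitals mark runs of at least 5 adenines. The ends are those annotated, and where each RNA ends in these cells was not tested. The members are mt-Rnr2, the most abundant, mt-Nd3 and mt-Nd5, with the largest differences between batches, mt-Co2, with the smallest, mt-Nd4, whose transcript ends on the T of an unfinished stop codon, and mt-Nd6, the only protein gene on the opposite strand.

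mt-Rnr2, chrM:2616-2675 (+): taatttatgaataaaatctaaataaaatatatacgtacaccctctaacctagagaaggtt

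mt-Nd3, chrM:9747-9806 (+): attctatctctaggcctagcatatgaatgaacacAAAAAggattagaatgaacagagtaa

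mt-Nd5, chrM:13506-13565 (+): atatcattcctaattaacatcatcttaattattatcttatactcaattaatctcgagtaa

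mt-Co2, chrM:7637-7696 (+): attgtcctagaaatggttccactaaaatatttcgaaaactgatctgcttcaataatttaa

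mt-Nd4, chrM:11485-11544 (+): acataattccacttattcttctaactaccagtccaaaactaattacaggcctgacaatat

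mt-Nd6, chrM:13552-13611 (-): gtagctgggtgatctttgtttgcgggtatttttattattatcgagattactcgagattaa

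Of these 6 ends, that of mt-Nd3 holds a run of at least 5 adenines, which ends 21 bases before the end of the transcript. Inside its transcript mt-Rnr2 has 9 such runs, more than any other member, and the longest of them holds 7 adenines.

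mt-Rnr2, longest run of adenines, chrM:1468-1514 (+): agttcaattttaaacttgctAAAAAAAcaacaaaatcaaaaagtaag

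The other rRNA gene, mt-Rnr1, has 2 such runs. mt-Co2, mt-Nd4l and mt-Nd6 have none, and the longest run in mt-Nd6 is 3 adenines. These are features of the sequence, and their part in the counts was not tested. The annotated transcripts of mt-Co3, mt-Nd4 and mt-Cytb end on a single T after the last complete codon, so their stop codon is completed by the tail. Some neighbours overlap on the genome, by 43 bases for mt-Atp8 and mt-Atp6, by 7 for mt-Nd4l and mt-Nd4, and by 14 for mt-Nd5 and mt-Nd6. The last pair is antisense, and no label states the strand setting of the counting, so reads of the shared stretch cannot be told apart.

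The libraries held from 19322 to 624668 counts, with a median of 134985. Tcf7 stood at 0 to 46.2 CPM (counts scaled to a common library total) in the TCF7-/- CILP libraries and at 190 to 658 in WT CILP. Id2 stood at 26.8 and 118.5 CPM in Id2-/- CILP, against 1108 to 2958 in WT CILP of the same batch. No label says whether the 3′ tag lies in the deleted part of either gene. The 5 CLP markers together took 0.879% to 1.72% of counts in WT CLP, and markers of CILP and ILCP took 0.244% to 0.575% in WT CILP. In Id2-/- CILP the latter took 0.029% and 0.0356%, below each WT CILP library. The control wells, which hold spike-in RNA and no cells, had 51 to 9439 counts. Members took 0 to 2865 of these in batch 1 and 9 to 24 in batch 2.

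Members took a median of 4.33% of all counts over the 47 libraries, from 0.385% to 23.6%. mt-Rnr2, the large-subunit rRNA, made up 58.0 ± 10.7% of the mitochondrial counts (mean ± SD, n = 47), and the rRNA genes together 69.0 ± 10.9%. At an average of 31887 CPM, mt-Rnr2 was followed by mt-Rnr1, the small-subunit rRNA, at 6637 CPM. The next were mt-Nd4, a complex I subunit, at 3477 CPM, mt-Cytb, the cytochrome of complex III, at 2917 CPM, and mt-Nd2, another complex I subunit, at 1878 CPM. At the other end, mt-Nd4l averaged 20.1 CPM with a count in 26 of 47 libraries, and mt-Atp8 17.4 CPM with a count in 36.

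Because tags gather near the 3′ end, a count does not simply scale with transcript length, and the order of the genes differs between CPM and CPM per kilobase. Per kilobase of transcript, mt-Rnr2 averaged 20156 CPM and mt-Rnr1 6950. Among the protein genes mt-Nd6, a short complex I gene that averaged 1695 CPM, came first on this scale at 3267 CPM per kilobase, then mt-Cytb at 2550 and mt-Nd4 at 2523. The catalytic core subunit of complex IV, mt-Co1, averaged 358 CPM per kilobase, and the lowest were mt-Atp8, an ATP synthase subunit, at 85.5 and mt-Nd4l, of complex I, at 67.6. For a 3′ tag assay a level per length can understate long transcripts and overstate short ones. The annotated ends of mt-Atp8 and mt-Nd4l lie inside their neighbours mt-Atp6 and mt-Nd4, and what this does to their low counts was not tested.

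**Figure D1:**
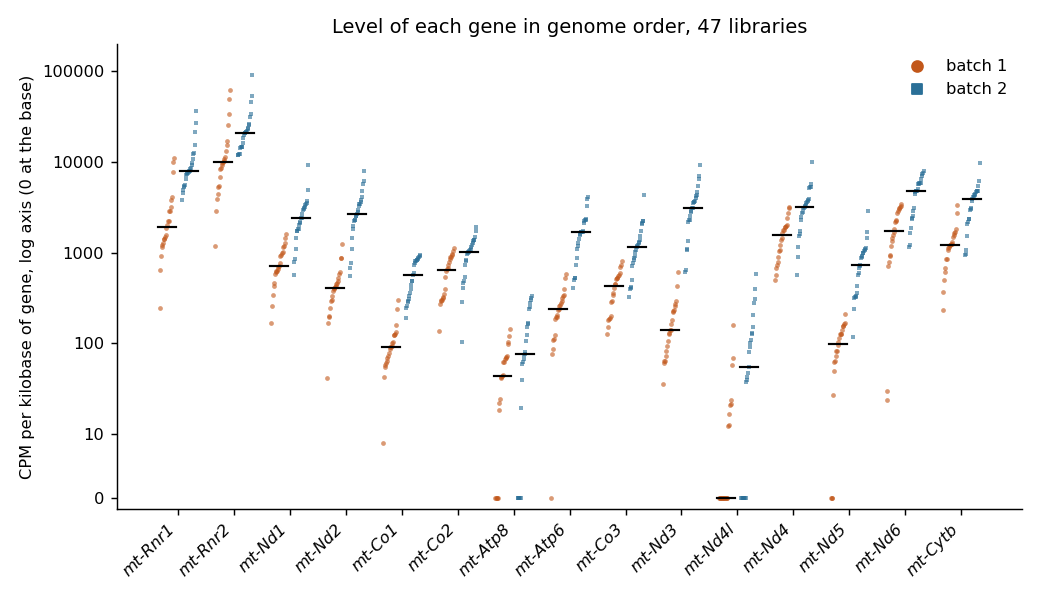
Level of each of the 15 genes in genome order, as CPM per kilobase of gene on a log axis, with 1 point per library, batch 1 in orange circles and batch 2 in blue squares, and the median as a black bar. mt-Rnr2 has the highest median in both batches, and the batches stand furthest apart for mt-Nd3.

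The share taken by members overlapped widely between WT populations. It averaged 5.95 ± 2.35% in CLP (SD, n = 8), 4.21 ± 1.74% in α4β7 CLP (n = 5), 5.08 ± 1.96% in CILP (n = 7), 3.33 ± 1.32% in ILCP (n = 3) and 7.11 ± 7.16% in ILC2P (n = 8). The wide spread in ILC2P came with replicate 1, at 23.6% (95% Wilson interval 23.0% to 24.2%), which is also the shallowest of the 47 libraries at 19322 counts. Its myeloid markers took 0.512% of counts, its erythroid markers 0.0932% and its ILC2P markers 0.202%, the lowest of the group, and their part in its share was not tested. The other 7 ILC2P libraries lay between 2.32% and 10.5%. These intervals cover counting error only, because no molecular identifiers are stated.

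Within each batch the order of the populations differed. In batch 1 the WT shares averaged 3.51% in CLP, 2.56% in α4β7 CLP, 3.75% in CILP and 2.64% in ILC2P, and the ILCP library stood at 1.83%. In batch 2 they averaged 7.42% in CLP, 5.30% in α4β7 CLP, 6.07% in CILP, 4.08% in ILCP and 9.79% in ILC2P. The ILCP mean was the lowest in both batches, with 1 and 2 libraries, but in batch 2 its libraries overlapped those of α4β7 CLP, CILP and ILC2P. Without replicate 1 the ILC2P mean of batch 2 was 6.33% (n = 4), below that of CLP. As the share adds up members, it is given as a description without a test. In bulk samples fewer cells of a type and less RNA per cell cannot be told apart.

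**Figure D2:**
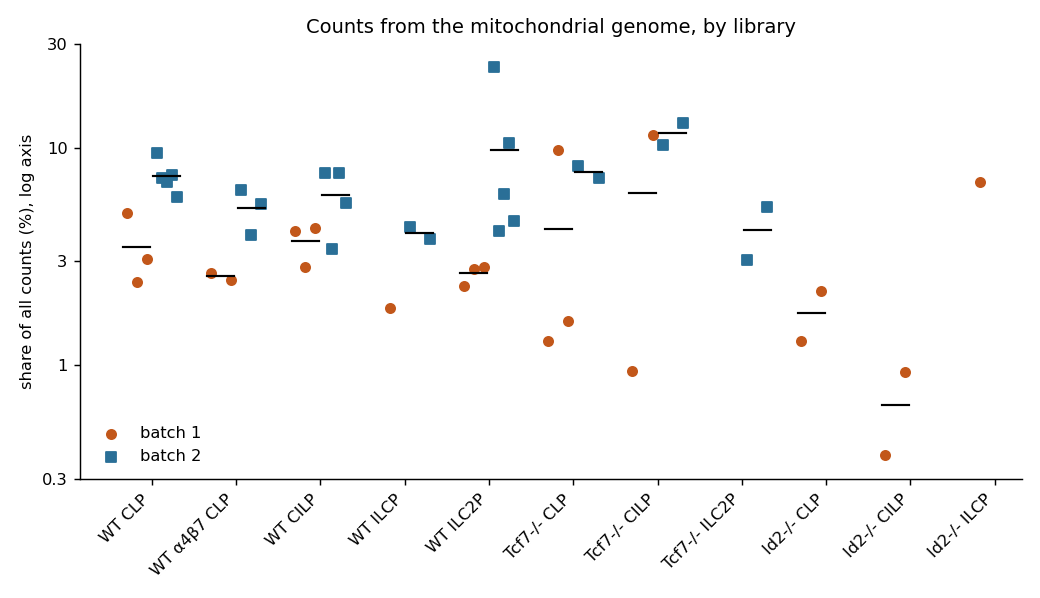
Share of all counts taken by the 15 mitochondrial genes in each of the 47 libraries, in percent on a log axis, by group and batch, with the mean of each group and batch of at least 2 libraries as a black bar. The mean of batch 2 lies above batch 1 in each WT population, with overlapping libraries in CILP. Both Id2-/- CILP libraries and TCF7-/- CILP replicate 3 lie under 1%.

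Technical repeats of the same sample show how far these values move without any change of cells. The 3 runs of WT CLP replicate 2 gave shares of 8.56%, 6.42% and 3.57%, and rRNA genes made up 71.6%, 36.5% and 29.2% of their mitochondrial counts. The 3 runs of WT CILP replicate 1 gave shares of 6.41%, 12.1% and 5.42%, with rRNA genes at 61.1%, 75.2% and 58.3%. The range within 1 sample was thus 2.40-fold and 2.23-fold for the share.

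The 5 most abundant members are given here in every group, as mean ± SD. mt-Rnr2 averaged 32423 ± 12947 CPM in WT CLP, 22518 ± 7375 in α4β7 CLP, 27211 ± 10080 in CILP, 19451 ± 9068 in ILCP and 39962 ± 43292 in ILC2P, where replicate 1 reached 143360. It averaged 32817 ± 28458 CPM in TCF7-/- CLP, 65478 ± 41050 in TCF7-/- CILP and 25551 ± 8675 in TCF7-/- ILC2P. In Id2-/- mice it averaged 10391 ± 4721 CPM in CLP and 3243 ± 1904 in CILP, and the ILCP library stood at 53818. The WT populations overlap in mt-Rnr2, and both Id2-/- CILP libraries stand below every WT library.

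mt-Rnr1 averaged 6211 ± 4576 CPM in WT CLP, 5556 ± 2744 in α4β7 CLP, 6140 ± 3656 in CILP, 4436 ± 3283 in ILCP and 9334 ± 11921 in ILC2P. In TCF7-/- mice it averaged 6223 ± 4092 CPM in CLP, 11499 ± 10642 in CILP and 6387 ± 1583 in ILC2P. In Id2-/- mice it stood at 1348 and 1353 CPM in CLP, 237 and 1151 in CILP and 9541 in ILCP. For both rRNA genes the single Id2-/- ILCP library was therefore high and the Id2-/- CILP libraries were low.

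mt-Nd4 averaged 4283 ± 1631 CPM in WT CLP, 2924 ± 1707 in α4β7 CLP, 4056 ± 1042 in CILP, 2142 ± 477 in ILCP and 5139 ± 3830 in ILC2P. It averaged 3873 ± 3425 CPM in TCF7-/- CLP, 2191 ± 695 in TCF7-/- CILP and 2096 ± 1870 in TCF7-/- ILC2P. In Id2-/- mice it averaged 1613 ± 552 CPM in CLP and 807 ± 171 in CILP, and stood at 1436 in ILCP. Unlike the rRNA genes, mt-Nd4 was not high in the Id2-/- ILCP library.

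mt-Cytb averaged 3677 ± 1965 CPM in WT CLP, 2776 ± 1835 in α4β7 CLP, 2960 ± 1233 in CILP, 1962 ± 1219 in ILCP and 4156 ± 3390 in ILC2P. In TCF7-/- CLP, CILP and ILC2P it averaged 3119 ± 2784, 2448 ± 1946 and 1731 ± 867 CPM. In Id2-/- mice it averaged 1299 ± 108 CPM in CLP and 601 ± 259 in CILP, and stood at 1310 in ILCP. The ranges of the WT populations overlap for this gene as well.

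mt-Nd2 averaged 2015 ± 1341 CPM in WT CLP, 1550 ± 1481 in α4β7 CLP, 2160 ± 1483 in CILP, 1227 ± 1246 in ILCP and 2888 ± 2500 in ILC2P. In TCF7-/- CLP, CILP and ILC2P it averaged 2732 ± 3461, 1192 ± 1165 and 1342 ± 770 CPM. In Id2-/- mice it averaged 329 ± 25.8 CPM in CLP and 149 ± 149 in CILP, and stood at 422 in ILCP. Most of these groups span both batches, between which mt-Nd2 differed as given next.

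Batch was the contrast in which members were called. In the same model all 14 members tested were higher in batch 2 than in batch 1 at an adjusted p under 0.05, by edgeR's quasi-likelihood test with Benjamini-Hochberg adjustment over 10972 genes, where 16.3% of all genes were called in either direction and 8.27% higher, and the median log2 fold change was -0.04. The median over the members was 1.97. The scarce mt-Nd4l is counted among them, although it passed the filter through libraries of batch 2 alone. The folds ran from 1.88-fold for mt-Co2 to 20.4-fold for mt-Nd3. Batch is what the labels call it, and its part in a difference between cells, reagents or counting was not tested.

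The complex I genes mt-Nd3 and mt-Nd5 differed most. mt-Nd3 ranged from 12.5 to 213 CPM in the 22 libraries of batch 1 (median 49.0) and from 212 to 3258 in the 25 of batch 2 (median 1087), a log2 fold change of 4.35 ± 0.33 (SE, adjusted p = 5.7e-22). The batches hardly overlapped, since 24 of the 25 libraries of batch 2 lay above the highest of batch 1. mt-Nd5 ranged from 0 to 383 CPM in batch 1 (median 181) and from 214 to 5279 in batch 2 (median 1328), a log2 fold change of 3.25 ± 0.35 (adjusted p = 2.5e-11). Again 24 of 25 libraries of batch 2 lay above the highest of batch 1. In the 7 groups with libraries in both batches neither gene overlapped between them. The share of all genes that separated in this way is not given here, so the overlaps between batches are description only.

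Intermediate differences were found for genes of 3 complexes and for an rRNA gene. mt-Atp6, an ATP synthase subunit, had a median of 163 CPM in batch 1 (0 to 394) and 1145 in batch 2 (278 to 2809), which is 7.37-fold in the model. mt-Nd2 had medians of 428 CPM (43.7 to 1301) and 2795 (582 to 8168), which is 7.12-fold. mt-Co1 had medians of 142 CPM (12.5 to 464) and 882 (294 to 1449), which is 6.04-fold, and did not overlap between batches in any of the 7 groups. mt-Rnr1 had medians of 1838 CPM (237 to 10466) and 7507 (3644 to 34417), which is 4.55-fold.

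The scarce mt-Nd4l was 6.55-fold higher in batch 2, with a 95% interval of 0.91 to 4.52 on the log2 scale, and had no count in 13 libraries of batch 1 and 8 of batch 2. Its highest value was 47.3 CPM in batch 1 and 172 in batch 2. Since mt-Atp8 failed the filter with a highest value of 68.0 CPM, mt-Nd4l passed it through libraries of batch 2 alone. Its call therefore adds no support to the difference between batches. mt-Nd1, of complex I, had medians of 681 CPM (162 to 1523) and 2314 (539 to 8798), which is 3.38-fold. mt-Co3, of complex IV, had medians of 339 CPM (99.8 to 628) and 912 (258 to 3364), which is 3.06-fold. mt-Cytb had medians of 1384 CPM (266 to 3849) and 4498 (1090 to 11127), which is 3.05-fold. mt-Nd6 had medians of 910 CPM (12.5 to 1786) and 2478 (595 to 4134), which is 2.48-fold.

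The smallest differences were those of mt-Nd4, mt-Rnr2 and mt-Co2. mt-Nd4 had medians of 2135 CPM (686 to 4424) and 4342 (774 to 13611), which is 2.10-fold. mt-Rnr2 had medians of 15795 CPM (1897 to 99342) and 32867 (18807 to 143360), a log2 fold change of 0.94 ± 0.30 (adjusted p = 0.028). mt-Co2, which carries the copper centre that takes electrons from cytochrome c, had medians of 442 CPM (94.0 to 770) and 703 (71.4 to 1326), a log2 fold change of 0.91 ± 0.26 (adjusted p = 0.0087). For mt-Co2, 9 of the 25 libraries of batch 2 lay above the highest of batch 1, and 2 of the 7 groups did not overlap between batches.

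**Figure D3:**
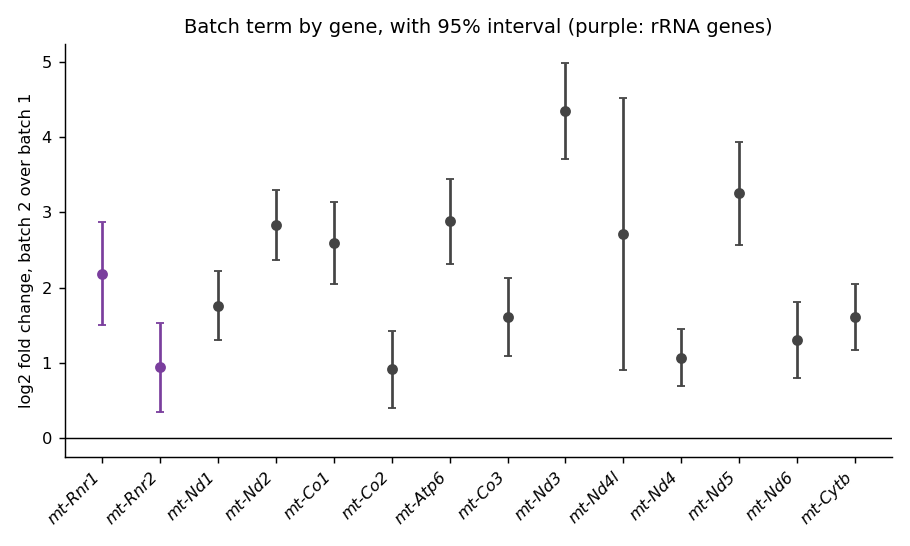
Batch term of the model for the 14 members tested, as the log2 fold change of batch 2 over batch 1 with its 95% interval, in genome order, with rRNA genes in purple. All intervals lie above 0, and the fold changes run from 0.91 for mt-Co2 to 4.35 for mt-Nd3.

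The batches differed in composition as well as in level. mt-Nd3 made up 0.249 ± 0.185% of mitochondrial counts in batch 1 (n = 22) and 1.82 ± 0.91% in batch 2 (n = 25), while mt-Co2 made up 1.66 ± 0.94% and 0.996 ± 0.419%. mt-Rnr2 made up 63.5 ± 10.3% and 53.2 ± 8.7%, and mt-Rnr1 8.37 ± 3.24% and 13.4 ± 3.2%. The ratio of mt-Rnr2 to mt-Rnr1 counts was 8.65 ± 3.43 in batch 1, with a range of 3.02 to 17.0, and 4.12 ± 0.85 in batch 2, with a range of 2.41 to 6.37. The spread of this ratio was thus narrower in batch 2. Depth did not separate the batches, whose libraries had medians of 126235 and 149467 counts.

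Between WT populations no member was called. With CLP as the start, 0 of 14 were called in α4β7 CLP (0.0456% of all genes called, 1 member with an unadjusted p under 0.05) and 0 of 14 in CILP (4.31% of all genes, 0 members). CILP against α4β7 CLP gave 0 of 14 (2.35%, 0 members), ILCP against CILP 0 of 14 (0.374%, 6 members), ILC2P against CILP 0 of 14 (5.32%, 1 member) and ILC2P against ILCP 0 of 14 (0.483%, 1 member). ILC2P against CLP, where 11.5% of all genes were called, also gave 0 of 14 with 2 members under 0.05 unadjusted. The test for any difference among the 5 populations called 18.1% of all genes and 0 of 14 members, with 2 under 0.05 unadjusted. DESeq2 called 0 members in these 7 pairs and 1 in the last test, mt-Co1 (adjusted p = 0.028).

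ILC2P and CLP came nearest to a call. mt-Co1 stood at 85.4 to 205 CPM in ILC2P and 189 to 464 in CLP of batch 1, and at 516 to 1449 and 763 to 1419 in batch 2, so the populations overlapped in each batch. Its log2 fold change was -1.08 ± 0.40 (SE, adjusted p = 0.064), beside a median of -0.43 over all genes. With library totals taken from nuclear genes alone the adjusted p was 0.048. The smallest adjusted p of any member was 0.20 with DESeq2 and 0.26 with its size factors in edgeR. It was 0.20 without a filter, 0.19 without a batch term and 0.24 with only the compared groups. DESeq2's size factors moved the median over the members from -0.49 to 0.004, and that of all genes to -0.18. Without ILC2P replicate 4 mt-Co1 and mt-Nd3 were called (adjusted p = 0.037 and 0.049), and without ILC2P replicate 1 mt-Co3 was (adjusted p = 0.038).

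ILCP had values under those of CILP for all 14 members tested, with a median log2 fold change of -1.02 beside -0.27 over all genes. The largest well-measured difference was that of mt-Nd6, at 480, 629 and 970 CPM in ILCP and 1252 to 2478 in CILP. Its log2 fold change was -1.43 ± 0.57 (SE, adjusted p = 0.35), so no gene of this set passed the threshold, although all 3 ILCP libraries lay below the lowest CILP library. mt-Nd4l had no count in any of the 3 WT ILCP libraries, where 0 counts allows up to 3, and no fold is given for it. WT ILCP replicate 1 also carried erythroid markers at 1.16% of counts, against at most 0.0911% in WT CILP, and their part in the result was not tested.

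**Figure D4:**
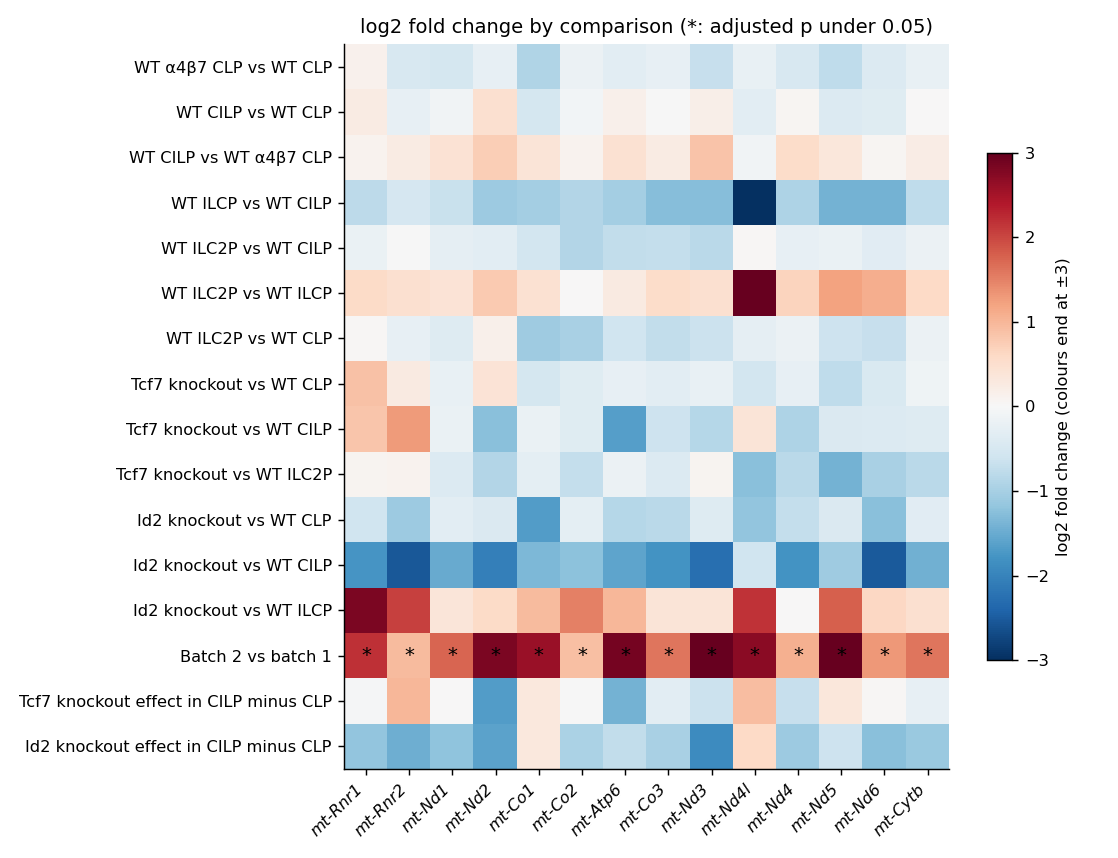
log2 fold change of the 14 members tested (columns, in genome order) in 16 comparisons (rows), from blue for lower to red for higher, with colours ending at ±3 and a star at an adjusted p under 0.05. Stars stand in the row of batch 2 against batch 1. Id2-/- against WT CILP is blue throughout. Id2-/- against WT ILCP is red except for mt-Nd4, at 0.008, and its value for mt-Nd4l has no WT ILCP count behind it.

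Id2-/- CILP had low values, and all 14 members tested had a negative log2 fold change against WT. Their median was -1.68, beside -0.15 over all genes, and 9 had an unadjusted p under 0.05, but 0 of 14 were called (0.0911% of all genes called). The smallest adjusted p, shared by mt-Nd4 and mt-Nd6, was 0.18. The members' share was 0.385% and 0.928% in the Id2-/- libraries and 2.83%, 4.13% and 4.27% in WT CILP of the same batch. Of the 14 members tested 12 were lower in both Id2-/- libraries than in each of these 3, as were 7.11% of all genes tested. The 7.11% covers genes of any abundance, and no such percentage is given for genes as abundant as the members.

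mt-Rnr2 stood at 1897 and 4589 CPM in Id2-/- CILP and at 15608, 24331 and 26712 in WT CILP of batch 1, a log2 fold change of -2.55 ± 0.86 (SE, adjusted p = 0.37). mt-Nd6 stood at 12.5 and 370 CPM against 1510, 1644 and 1680, a log2 fold change of -2.51 ± 0.74 (adjusted p = 0.18). The groups do not overlap for either gene, and the Id2-/- libraries differ from each other most for mt-Nd6, which had 2 counts in replicate 1 and 83 in replicate 2. mt-Nd2 stood at 43.7 and 254 CPM against 629, 898 and 1301, a log2 fold change of -2.04 ± 0.62 (adjusted p = 0.20). mt-Nd4 stood at 686 and 928 CPM against 3346, 4309 and 4424, a log2 fold change of -1.80 ± 0.53 (adjusted p = 0.18).

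Whether members were called here depended on the fit. Fitted within batch 1, the model called mt-Nd4 (adjusted p = 8.7e-05), mt-Nd2 (0.017) and mt-Cytb (0.018), all lower. Fitted to the compared groups alone it called mt-Rnr2 (0.0017), mt-Nd4 (0.013) and mt-Nd3 (0.048), and DESeq2 called mt-Nd6 (0.0087), mt-Nd2 (0.039) and mt-Rnr2 (0.041). Without a filter on low counts mt-Rnr2 and mt-Rnr1 were called. The share of all genes called in these other fits is not given here. Without Id2-/- CILP replicate 2 mt-Nd6 was called (adjusted p = 0.0053), but that leaves 1 library with 2 counts of this gene, which is assumed to vary like the other groups. The 617 and 2081 mitochondrial counts of the Id2-/- CILP libraries lay below the 2865 of the highest control well of batch 1. They were among 11 of the 22 libraries of that batch below it, which also include 1 of the 3 WT CILP libraries. The part of background in these counts was not tested. Depth was 160289 and 224239 counts, above each WT CILP library of that batch.

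**Figure D5:**
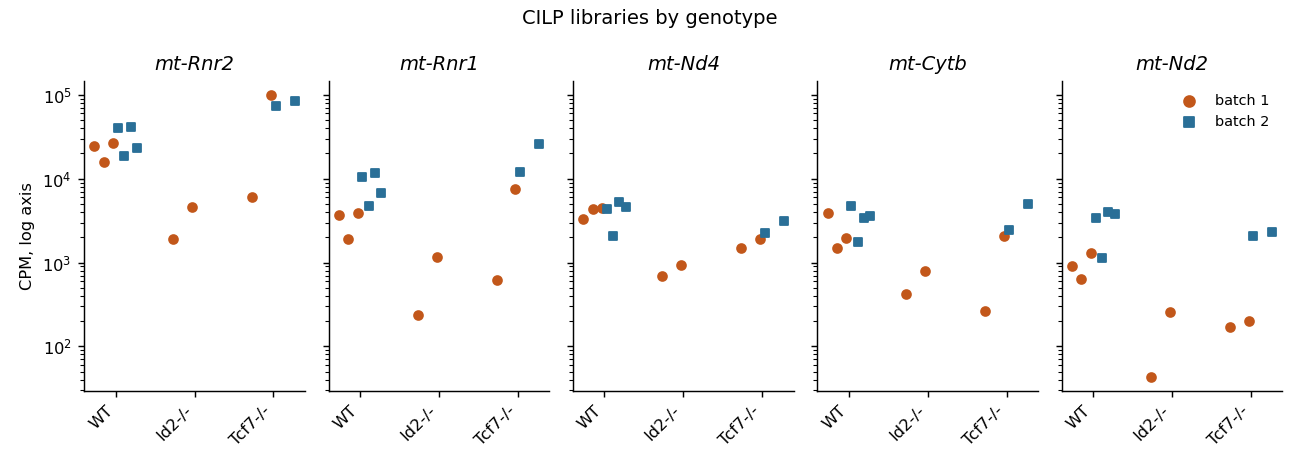
The 5 most abundant members in CILP libraries by genotype, in CPM on a log axis, with batch 1 in orange circles and batch 2 in blue squares. Id2-/- libraries lie below every WT CILP library for mt-Rnr2, mt-Rnr1, mt-Nd4, mt-Cytb and mt-Nd2, while TCF7-/- libraries lie both above and below for mt-Rnr2.

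In CLP the Id2-/- values pointed the same way by a smaller amount. All 14 had a negative log2 fold change, with a median of -0.66 beside -0.08 over all genes, and 0 were called (0.0365% of all genes, 1 member with an unadjusted p under 0.05, DESeq2 0). The share was 1.29% and 2.19%, against 2.42%, 3.07% and 5.03% in WT CLP of batch 1. mt-Co1 stood at 66.7 and 89.7 CPM against 189, 366 and 464, a log2 fold change of -1.67 ± 0.72 (adjusted p = 1). The difference between the effects in CILP and in CLP was tested directly and gave 0 of 14 called (0.0365% of all genes, 1 member unadjusted, DESeq2 0).

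The single Id2-/- ILCP library stood on the other side. Its share was 6.94% against 1.83% in the WT ILCP library of batch 1 and 3.83% and 4.33% in batch 2. All 14 members had a positive log2 fold change, with a median of 0.78 beside -0.49 over all genes, and 0 were called (0% of all genes, 2 members unadjusted, DESeq2 0). Among these values, that of mt-Nd4l has no count in WT ILCP behind it and is not read as a rise. The value of mt-Nd4 was 0.008, which is no rise either. The rRNA genes led, since mt-Rnr1 stood at 9541 CPM against 879 in the WT library of the same batch. mt-Rnr2 stood at 53818 against 10676, and rRNA genes made up 91.3% of the mitochondrial counts of the Id2-/- library. With 1 library the test assumes that it varies like the other groups. Protein genes took 0.605% of its counts, below the 0.6725% of the WT ILCP library of batch 1. Within batch 1 the median log2 fold change was 0.33, with 9 of 13 values positive, and without a batch term 10 of the 14 values were negative. This library carried erythroid markers at 1.76% and myeloid markers at 1.42% of counts, against 0 in WT ILCP of the same batch for the former and at most 0.0123% in WT ILCP for the latter, and their part in the result was not tested.

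In TCF7-/- CILP no member was called, and the values differed between libraries and batches. mt-Rnr2 stood at 6108 and 99342 CPM in TCF7-/- CILP of batch 1, where WT had 15608 to 26712, and at 72830 and 83634 in batch 2, where WT had 18807 to 41608. So 3 of the 4 libraries lay above all WT libraries of their batch and replicate 3 below them, and the log2 fold change was 1.28 ± 0.54 (adjusted p = 0.37). mt-Nd2 stood at 172 and 203 CPM in batch 1 against 629 to 1301, and at 2064 and 2328 in batch 2 against 1129 to 3967, with a log2 fold change of -1.26 ± 0.44 (adjusted p = 0.22). mt-Atp6 stood at 0 and 142 CPM against 229 to 394 in batch 1, and at 590 and 502 against 362 to 1582 in batch 2, with a log2 fold change of -1.65 ± 0.56 (adjusted p = 0.20). Both were below WT in batch 1 without overlap and inside the WT range in batch 2. Fitted within batch 2, 8 of the 14 members had a positive log2 fold change, with a median of 0.08. Protein genes took 1.83% and 2.11% of counts in that batch, inside the WT range of 1.06% to 2.57%. In batch 1 protein genes took 0.268% and 0.800% of counts, below the WT range of 1.08% to 1.33%.

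Of the 14 members 0 were called in this comparison (0.501% of all genes), 4 had an unadjusted p under 0.05, and DESeq2 called 0. The model within batch 1 called mt-Nd5 (adjusted p = 0.014), which had no count in either TCF7-/- CILP library of batch 1 and 12 to 22 counts in WT CILP there, and the fit without a filter called mt-Rnr2, higher. Negative values were found for 11 of 14 members, and for 8 of 14 with DESeq2's size factors, which moved the median of all genes from -0.32 to -0.06. rRNA genes made up 82.7 ± 8.8% of mitochondrial counts in TCF7-/- CILP (SD, n = 4), from 71.5% to 93.0%, and 65.6 ± 6.0% in WT CILP (n = 7), from 53.9% to 71.6%. Replicate 3, at 71.5%, overlapped the WT range.

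Markers of other cells were high in some of the libraries with a high share of rRNA genes. TCF7-/- CILP replicates 1 and 4 had erythroid markers at 1.26% and 3.47% and myeloid markers at 1.07% each, against at most 0.0911% and 0.156% in WT CILP. Their mitochondrial counts were 82.3% and 93.0% rRNA. TCF7-/- CILP replicate 2 had rRNA genes at 83.9% with erythroid markers at 0.0502% and myeloid markers at 0.0996%, both inside the WT CILP range. WT CLP replicate 6 had rRNA genes at 85.1% with myeloid markers at 0.0128%. The part of these markers in the result was not tested.

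In the other TCF7-/- populations no member was called either. In CLP there were 0 of 14 (0% of all genes, 0 members unadjusted, DESeq2 0), with a median log2 fold change of -0.24, or -0.10 with DESeq2's size factors, and the share ran from 1.29% to 9.78%. Replicate 4, at 9.78% in batch 1, stood apart from replicates 3 and 5 of that batch at 1.29% and 1.61%, and rRNA genes made up 90.6% of its mitochondrial counts. Its myeloid markers took 0.401% of counts, against 0.0178% and 0.0084% in replicates 3 and 5 and at most 0.0268% in WT CLP, and their part in its share was not tested. In ILC2P there were 0 of 14 (2.57% of all genes, 0 members unadjusted, DESeq2 0), with a median of -0.56 beside 0.19 over all genes. With DESeq2's size factors this median was -1.25, beside -0.08 over all genes. The shares there were 3.04% and 5.34%, and replicate 1 lay below the 4.13% to 23.6% of WT ILC2P in batch 2. This replicate carried markers of mature B and plasma cells at 7.01% of counts, against at most 0.330% in WT ILC2P, erythroid markers at 0.842% and myeloid markers at 0.891%. Replicate 2 carried markers of mature T cells at 0.659%, against at most 0.0076% in WT ILC2P. Their part in these values was not tested. The difference between the effects of Tcf7 loss in CILP and in CLP gave 0 of 14 called (0.0456% of all genes, 2 members unadjusted, DESeq2 0), the smallest adjusted p being that of mt-Nd2 at 0.28.

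mt-Nd6, on the strand opposite to the other protein genes, made up 11.5 ± 4.5% of the counts of protein members (n = 47). It nearly vanished in 2 libraries of batch 1, at 0.73% with 2 counts in Id2-/- CILP replicate 1 and at 0.58% with 1 count in TCF7-/- CILP replicate 3. These are also the libraries with the fewest mitochondrial counts, 617 and 600. In the other 45 libraries the percentage ran from 4.4% to 20.8%.

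Nuclear genes that transcribe, copy, process and regulate mitochondrial RNA and DNA were described from 4 lists with 66 genes, of which 59 were tested. In 12 of the 17 comparisons none of them was called. ILC2P had lower values than CILP for Ssbp1, the single-stranded DNA binding protein of mtDNA replication (log2 fold change -4.08 ± 1.19, adjusted p = 0.021). ILC2P had lower values than CLP for 3 of 59, where 11.5% of all genes were called. They were Mrm3, a methyltransferase of the mitochondrial large rRNA (log2 fold change -6.53, adjusted p = 0.0063), Pprc1, a coactivator of the PGC-1 family (-3.51 ± 1.21, 0.035), and Tfb1m, which methylates the small rRNA (-5.19, 0.041). Rexo2, a mitochondrial oligoribonuclease, was higher in TCF7-/- than in WT ILC2P (3.42 ± 1.03, adjusted p = 0.046). The test among the 5 WT populations called Mrm3, Ppargc1a and Ssbp1.

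Between the batches 11 of the 59 were called, 7 higher and 4 lower in batch 2, a share of 18.6% beside 16.3% of all genes. Slirp, which stabilises mitochondrial messenger RNAs together with Lrpprc, was higher (log2 fold change 5.12 ± 0.66, adjusted p = 1.1e-10), and so were Esrra (3.63 ± 1.15, 0.0023) and Ssbp1 (2.46 ± 0.72, 0.0061). Ptcd3, a protein of the small mitochondrial ribosomal subunit, was lower (-4.41 ± 0.82, adjusted p = 6.2e-07). Tfb1m was higher (3.81 ± 1.69, 0.014) and Mterf1a lower (-2.46 ± 1.01, 0.027). The other called genes of the lists are not named here, because at most 6 were named per comparison.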

How the data were processed

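CEL-seq libraries of 100 sorted cells were sequenced, and per the submitters' processing notes the authors used CASAVA 1.8.2, the mouse build mm10, featureCounts, limma and edgeR (3.8.2 and 3.22.0). The aligner and the strand setting are not given in the sources used here. The deposited values are raw counts of reads per Entrez gene, in 1 table per batch, and 0 columns had no sample.

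Symbols came from RefSeq and coordinates and sequences from GENCODE on GRCm38, the assembly that mm10 names. From the counts, shares and CPM of all counts were computed with Python 3. For the tests (R 4.3.3, edgeR 4.0.16) genes were kept with filterByExpr. It asked for 15 counts overall and for a CPM worth 10 counts at the median depth. The number of libraries that had to reach this CPM was the size of the smallest group, here 1. Totals were scaled by TMM, and 11 group means plus batch were fitted to 47 libraries by robust quasi-likelihood, which left 35 residual degrees of freedom. Benjamini-Hochberg adjustment ran over all 10972 genes, with calls under 0.05. Folds rest on TMM-scaled totals (factors 0.495 to 1.55), while the CPM shown use all counts. The procedure was tested on simulated data.

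Settings changed in turn were the tool (DESeq2 1.42.0), the scaling (its size factors, or totals of nuclear genes), the filter (none), the batch term (none, or a fit per batch), and the libraries: the compared groups only, with the set-aside outlier, without those below 20% of the median depth of their batch, without repeats, and with each left out. Named were members called in any comparison, the 5 most abundant in every group, those near a call, and called genes of the nuclear lists, at most 6 per comparison. The members and lists were chosen with earlier results of these data known.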

Additional observations from a re-analysis of the deposited data

Results flagged for a closer look

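WT ILC2P replicate 1 stood far from the other 7 WT ILC2P libraries in 2 measures. Members took 23.6% of its counts, and mt-Rnr2 stood at 143360 CPM. It was the shallowest library, with 19322 counts, and had myeloid markers at 0.512% and erythroid markers at 0.0932% of counts, whose part in these values was not tested. Of 42 groups of values examined in this way 2 were marked, and chance marks about 1 in 20.

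Within batch 1 the share of counts differed in opposite directions in Id2-/- populations. Id2-/- minus the WT mean was -3.09 percentage points in CILP (n = 2), -1.77 in CLP (n = 2) and 5.11 in ILCP (1 library against 1 WT library). Every library of each population moved that way, and the difference between the populations was not tested. The higher share in ILCP lay in the rRNA genes, since protein genes took 0.605% there, below the 0.6725% of the WT library. Of the 15 members 7 stood above that WT library and 7 below it.

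Libraries outside the comparisons also held mitochondrial counts above the 2865 of the highest control well. The WT CILP library set aside as an outlier held 5054, or 10.7% of its counts. Nfil CLP held 16440 and 10576, Nfil CILP replicate 1 held 15426, or 31.8% of its counts, and Nfil ILC2P held 3928 and 4113. Nfil CILP replicate 2 had 296 counts in all, of which 4 were mitochondrial.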

How the results depend on the processing

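The 14 members higher in batch 2 stayed at 14 whichever library was left out, and at 13 or 14 under every other alternative that gave a batch term. Elsewhere the count of members called, 0 in the model, moved as follows. Without a filter it was 2 for Id2-/- against WT CILP, 2 for ILCP, and 1 each for Id2-/- CLP, TCF7-/- CILP, both tests of a difference between effects in CILP and CLP, and the 5 WT populations. For Id2-/- CILP it was 3 with DESeq2, 3 within batch 1 and 3 with only the compared groups. It was 1 for TCF7-/- CILP within batch 1, 1 for ILC2P against CLP with nuclear totals, and 1 for the WT populations with DESeq2 and 1 with only the compared groups. Leaving out 1 library gave 0 to 2 for ILC2P against CLP, 0 to 1 for Id2-/- CILP (1 without Id2-/- CILP replicate 2) and 0 to 1 for the WT populations (1 without ILC2P replicate 1). The share of all genes called in each of these fits is not set beside these counts, so they are not read as a result about the members. The cause was not tested.

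Over both batches protein genes alone took 2.09% of counts in WT CLP, 1.40% in α4β7 CLP, 1.74% in CILP, 0.938% in ILCP and 2.18% in ILC2P. They took 1.74% in TCF7-/- CLP and 1.25% in TCF7-/- CILP, and 0.995% in TCF7-/- ILC2P, which is of batch 2 alone. In the Id2-/- libraries, all of batch 1, they took 0.565% in CLP, 0.263% in CILP and 0.605% in ILCP. WT libraries of batch 1 stood at 0.752% to 0.945% in CLP, 1.08% to 1.33% in CILP and 0.6725% in ILCP. Within batch 1 the share of all members was 3.51% in WT CLP and 1.83% in WT ILCP. The count of nuclear list genes was 1 without a filter and 1 without a batch term for CILP against CLP, 0 without a batch term for ILC2P against CILP, and 1 with DESeq2 and 1 with its size factors for ILC2P against CLP. It was 0 with DESeq2, its size factors or no filter for TCF7-/- ILC2P. DESeq2 gave 7 between batches and 1 among the WT populations.

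No paired analysis was possible because replicate numbers were given in accession order and only name libraries. Groups of 1 or 2 libraries, 1 batch per Id2-/- group and control wells with up to 2865 mitochondrial counts limit what the knockout values show.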

Other observations

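Some control wells of batch 1 held mitochondrial counts over most members. The well with 9439 counts held 2865 mitochondrial counts, 30.4% of the total against at most 23.6% in the 47 libraries, spread over 14 of the 15 members, with rRNA genes at 90.3%. Another with 6936 counts held 689 over 12 members, and mt-Nd6 made up 32.6% of its protein member counts, above the 20.8% of the highest library. In batch 2 the 4 control wells had at most 491 counts and at most 24 mitochondrial ones.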
